A study of Mus musculus with 165 samples.

Results

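The genes described here were 7 Toll-like receptors (*Tlr1*, *Tlr2*, *Tlr4*, *Tlr6*, *Tlr7*, *Tlr9* and *Tlr13*), the lipopolysaccharide co-receptor *Cd14* and the adaptor *Myd88*. They were picked by symbol, with earlier results of these data known, from the 36255 genes of a normalized count table. No cut on measured values was used, and all 9 were found. All 9 were also among the 17414 genes tested, which are those that reached a normalized count of 5 in 1 library or more. The RNA came from PUER cells, a line of *Spi1*-/- mouse bone-marrow progenitors with a PU.1-estrogen receptor fusion, in which 4-hydroxytamoxifen (OHT) activates PU.1. The knockout and the fusion are shared by the cells of every group, controls included. Undifferentiated cells were kept in IL3 at 5 ng/ml without OHT (3 libraries). Macrophage differentiation was induced with 200 nM OHT in IL3 (IL3-OHT, 81 libraries), whereas for neutrophil differentiation IL3 was exchanged for GCSF at 10 ng/ml for 48 h (GCSF 0h, 3 libraries) before 100 nM OHT was given (GCSF-OHT, 78 libraries). Both courses were sampled at 27 time points from 1 to 168 h, in 3 libraries each except for 3 GCSF-OHT time points with 2.

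The replicates were wells of 1 line, and each time point had a plate of its own, so that plate and time cannot be told apart and p-values measure the spread between wells. Cytokine, pre-treatment and OHT dose also cannot be told apart between IL3-OHT and GCSF-OHT, and there was no vehicle course. The titles of the GCSF 0h samples name OHT, while their treatment labels do not, and they were taken as untreated. Cells sampled after 24 h were lifted with trypsin.

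Toll-like receptors are pattern-recognition receptors of innate immune cells. TLR2 pairs with TLR1 or TLR6 at the cell surface to bind bacterial lipopeptides, TLR4 binds lipopolysaccharide that CD14 hands over, and TLR7, TLR9 and TLR13 bind nucleic acids in endosomes. All of these receptors signal through the adaptor MyD88 to NF-kappa B, and both macrophages and neutrophils use them. The labels name no bacterial ligand, so the values below are mRNA levels of cells that were differentiating.

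Library depth ran from 14600246 to 33147945 reads with a median of 21960878, and 1 read was worth 0.652 to 1.84 normalized counts. *Spi1*, whose counts were not split between the fusion and the endogenous gene, lay between 4482 and 13387 normalized counts in every library. The summed level of 10 neutrophil marker genes was 200071 to 445715 in IL3-OHT and 435805 to 953268 in GCSF-OHT. Levels differed widely among the 8 monocyte or macrophage markers. *Csf1r* stayed at or under 77 reads in any library, whereas *Ly6c2* lay between 9195 and 25198.5 normalized counts. The summed list of monocyte or macrophage markers was 15297 to 34851 in IL3-OHT and 16272 to 26487 in GCSF-OHT. Lists for other cells reached at most 331 (mast cell or basophil), 132.9 (erythroid), 80.4 (dendritic cell) and 22.4 (lymphoid) normalized counts in any library. These are bulk samples, in which fewer cells of a type and less RNA per cell cannot be told apart.

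*Cd14* was the most abundant of the 9 transcripts in undifferentiated cells once levels were divided by exon length. It reached 4539 ± 30.3 normalized counts per kb (SD, n = 3), against 553 ± 30.2 for *Tlr4* and 259 ± 17.96 for *Myd88*. *Tlr7* (166.7 ± 6.83), *Tlr13* (79.2 ± 3.34) and *Tlr2* (45.6 ± 3.45) followed, and these 6 genes did not overlap between libraries. *Tlr6* at 4.89 ± 1.21, *Tlr9* at 1.55 ± 1.48 and *Tlr1* at 0.70 ± 0.62 per kb were low, and the last pair overlapped. *Tlr1* was at or under 3 reads in 25 libraries of the series, *Tlr6* in 4 and *Tlr9* in 44, whereas the other 6 genes were above 3 reads in every library. The precision for these 3 genes is therefore set by counting error as well as by the wells.

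**Figure D1:**
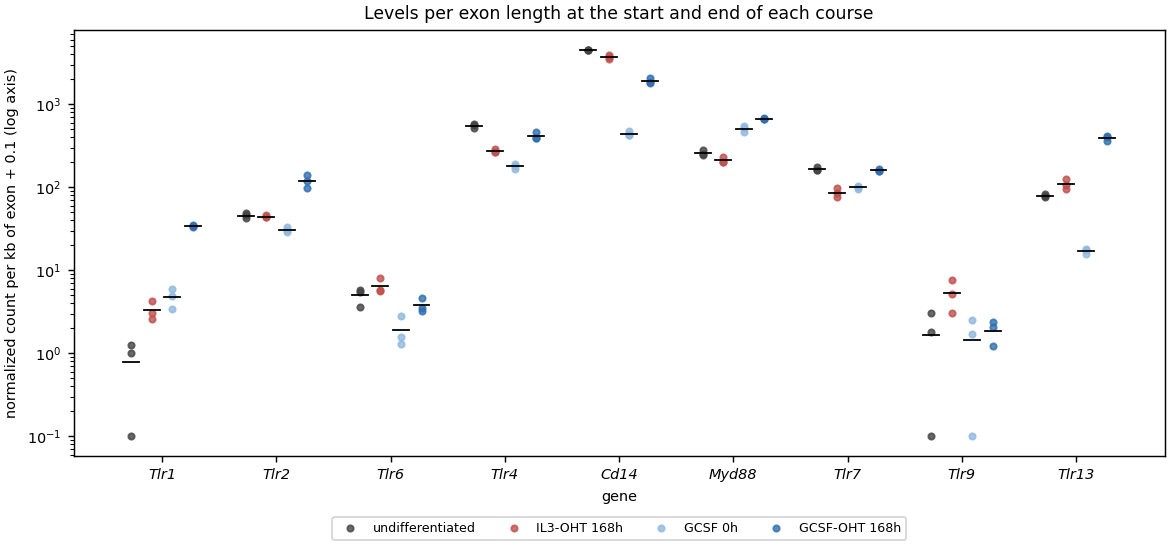
Level of each gene in normalized counts per kb of exon, plus 0.1 (log axis), in undifferentiated cells, IL3-OHT 168h, GCSF 0h and GCSF-OHT 168h, with a point for each of the 3 libraries and a bar at the mean. *Cd14* tops undifferentiated cells at 4539 per kb and both 168h groups but not GCSF 0h, where it lies at 445, and *Tlr1* climbs from 0.70 per kb in undifferentiated cells to 34.3 in GCSF-OHT 168h.

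The order changed with the treatment. In GCSF 0h *Myd88* (505 ± 42.2 per kb) and *Cd14* (445 ± 33.2 per kb) overlapped at the top, and *Tlr1* stood above *Tlr6*. In IL3-OHT 168h *Cd14* (3691 ± 211.5 per kb) was again followed by *Tlr4* (273 ± 14.4) and *Myd88* (211.8 ± 15.3), while *Tlr13* and *Tlr7* overlapped, as did *Tlr6* with *Tlr9* and *Tlr9* with *Tlr1*. In GCSF-OHT 168h *Cd14* (1907 ± 128.5 per kb) stood above *Myd88* (672 ± 15.1), and *Tlr4* (418 ± 45.02) and *Tlr13* (394 ± 28.4) overlapped behind them.

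The first comparison asked what 48 h of GCSF in place of IL3 did before PU.1 was activated. Addition of GCSF and removal of IL3 cannot be told apart in it. In GCSF 0h 7 of the 9 genes differed from undifferentiated cells by limma at an adjusted p under 0.05 and a log2 fold change past 0.58 on the log2(normalized count + 1) scale, and this call rule was used throughout. *Tlr1* and *Myd88* were called higher (2 of 9; 13% of all genes tested were) and *Tlr4*, *Tlr6*, *Tlr7*, *Tlr13* and *Cd14* lower (5 of 9; 20.7% of all genes tested were). The median log2 fold change of the 9 genes was -0.74, against -0.09 over all genes tested.

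*Cd14* had 7859, 7810 and 7915 normalized counts in the undifferentiated libraries and 836, 740.2 and 733 in GCSF 0h. The groups lay far apart, a 10.2-fold drop in the mean (log2 fold change -3.35, SE 0.06, adjusted p = 2.80e-83). *Tlr13*, whose product binds bacterial ribosomal RNA, went from 339, 356 and 327 to 77.6, 75.3 and 68.03 normalized counts, 4.63-fold lower (log2 fold change -2.20, SE 0.12, adjusted p = 1.34e-35). *Tlr4* went from 2897, 3099 and 3229.6 to 932, 1016 and 1053, 3.07-fold lower (log2 fold change -1.62, SE 0.08, adjusted p = 3.78e-37). *Cd14* and *Tlr4* were thus both lower in GCSF 0h, with no overlap of libraries, while *Lbp*, described below, was higher. *Tlr7*, a receptor for single-stranded RNA, was reduced from 665, 664 and 713 to 408, 428 and 388 normalized counts (log2 fold change -0.74, SE 0.10). *Tlr6* fell by 1.35 on the log2 scale (SE 0.37, adjusted p = 0.00105), on 10 to 21 reads a library before and 5 to 11 after.

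*Myd88* moved the other way, from 650.3, 719 and 631 normalized counts to 1182, 1325 and 1395, with no overlap (log2 fold change 0.96, SE 0.06, adjusted p = 1.22e-30). *Tlr1* had 3.93, 3.07 and 0 normalized counts in undifferentiated cells and 11.1, 15.9 and 19.6 in GCSF 0h. That is 6 reads against 51 reads summed over libraries, a ratio of 6.70 with a 95% exact interval of 2.87 to 19.1 that covers counting error only. *Tlr2* had 126.9, 138.1 and 148 normalized counts before and 87.8, 92.1 and 98.8 after, which do not overlap, but its log2 fold change of -0.56 (adjusted p = 0.00019) lay just inside the fold threshold and passed it under upper-quartile scaling at -0.59. *Tlr9* overlapped between the groups and was called lower only without replicate 1, at -1.78 (adjusted p = 0.0461).

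**Figure D2:**
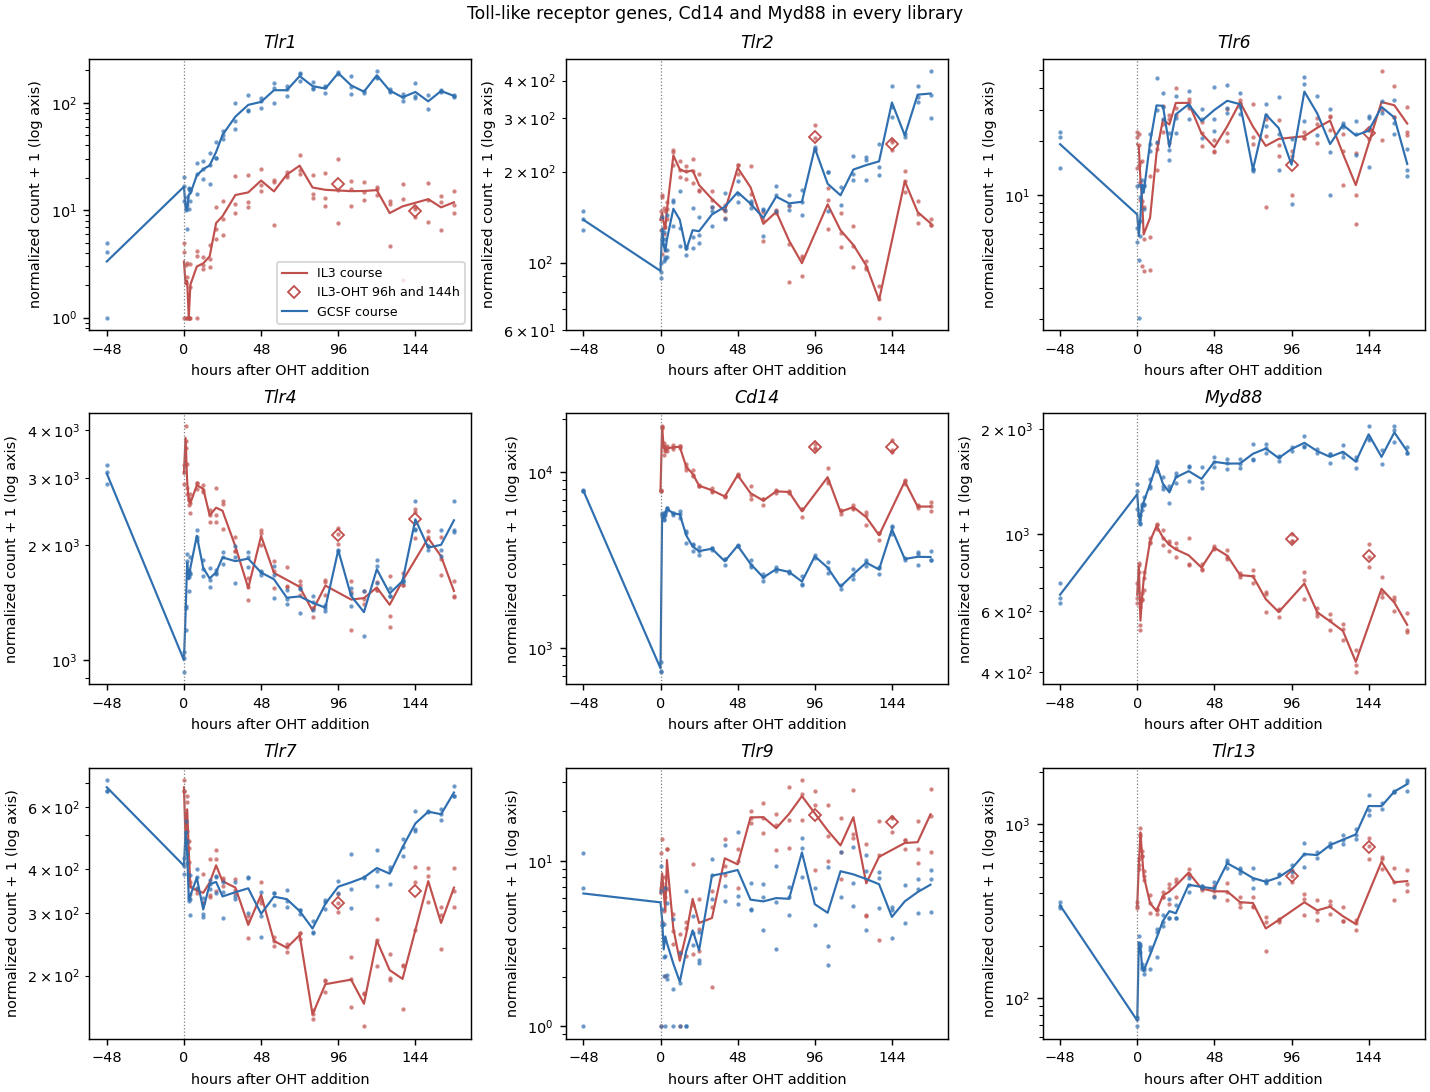
Normalized count + 1 (log axis) of the 9 genes against hours after OHT in the IL3 and GCSF courses, with a point for each library and lines through the means. Undifferentiated cells stand at 0 h of the IL3 course and 48 h before OHT in the GCSF course, and diamonds mark the means of IL3-OHT 96h and 144h. *Cd14* is higher in IL3-OHT, and *Tlr1* and *Myd88* in GCSF-OHT, at all 27 time points, while the *Tlr13* lines cross between 32 and 56 h.

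*Cd14* stood above its starting level at 1h after OHT in both courses. In IL3-OHT it had 17799, 18030 and 18380 normalized counts at 1h, 2.30 times the mean of undifferentiated cells and the highest of that course. It then came down to a low of 4393 ± 220 (SD, n = 3) at 136h and stood at 6420.2, 6013 and 6744 at 168h. In GCSF-OHT 1h the counts were 5865, 5656 and 5784, 7.49 times the mean of GCSF 0h, and the peak of 6209 ± 107.8 was at 4h. The GCSF-OHT course thus returned *Cd14* toward the undifferentiated level early, and at 168h it had 3160, 3189.5 and 3559, still under all undifferentiated libraries. All 27 time points had every IL3-OHT library above every GCSF-OHT library.

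*Tlr4* also started high in IL3-OHT, with 4100.1, 3741 and 3594 normalized counts at 1h, all above the undifferentiated libraries. It declined to 1347 ± 39.5 (SD, n = 3) at 80h and ended at 1476, 1609 and 1466. In GCSF-OHT it rose instead, from 1000.4 ± 62.4 in GCSF 0h through 1745 ± 98.6 at 4h to 2161, 2193 and 2610 at 168h. By then it exceeded every IL3-OHT library, an order it had in only 2 of the 27 time points (40h and 168h). IL3-OHT was higher without overlap in 13, the first 9 of which were all the time points through 24h.

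The lipopeptide receptors separated from each other. *Tlr1* stayed between 0 and 3 reads a library in undifferentiated cells, was at 0 reads in all 3 libraries of IL3-OHT 3h, and reached its IL3-OHT high of 24.9 ± 5.96 normalized counts (SD, n = 3) at 72h. In GCSF-OHT it climbed to 184.1 and 191.3 normalized counts at 96h, in the 2 libraries of that time point, and had 115.1, 110.8 and 118.1 at 168h. Against 8.31, 10.1 and 14.1 in IL3-OHT 168h, that is 10.5 times as much (340 reads against 33, 95% exact interval 7.30 to 15.4), and every GCSF-OHT library was above every IL3-OHT library of its time point. Against undifferentiated cells the ratio was 49.7 with an interval of 22.6 to 136.

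*Tlr2*, the shared partner, had 225 ± 14.4 normalized counts in IL3-OHT 8h, which only 96h and 144h exceeded in that course, at 259 ± 24.6 and 246 ± 9.56 (SD, n = 3), and its low of 74.2 ± 9.11 came at 136h. In GCSF-OHT it had 299, 357 and 428 at 168h, the highest level of that course, against 131.8, 138.2 and 132 in IL3-OHT 168h. IL3-OHT was the higher course without overlap at 7 time points between 8h and 48h, and GCSF-OHT at 9 time points from 88h on. *Tlr6* had no such order: the libraries overlapped at 19 of 27 time points, and its means stayed between 4.88 and 36.96 normalized counts in GCSF-OHT and between 4.98 and 32.2 in IL3-OHT.

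Set against each other per kb, *Tlr1* exceeded *Tlr6* in 0 of 3 undifferentiated libraries and in 15 of 81 IL3-OHT libraries, where the median ratio was 0.49. It exceeded it in all 3 libraries of GCSF 0h and in 74 of 78 of GCSF-OHT, where the median ratio was 4.17. At 168h the ratio was 0.37 to 0.76 in IL3-OHT and 7.69 to 10.5 in GCSF-OHT. *Tlr1* (chr5:64924679-64933563) and *Tlr6* (chr5:64952031-64960097) are neighbours on the minus strand of chromosome 5 in GRCm38, and they share 607 stretches of 31 bases, 18.3% of those in *Tlr1* and 16.4% of those in *Tlr6*. A read that lies wholly within shared sequence cannot be placed by sequence alone. How many reads did so was not counted, which leaves the split between this pair less certain than other values.

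*Tlr13* had the largest change in GCSF-OHT of the 3 endosomal receptors among the 9 genes. It went from 77.6, 75.3 and 68.03 normalized counts in GCSF 0h to 1557, 1786 and 1746 at 168h, 23.0 times the mean before OHT and 4.98 times that of undifferentiated cells. The rise was not steady. It reached 208.2 ± 16.8 (SD, n = 3) at 1h and came down to 143 ± 6.15 at 4h, the lowest mean after OHT. Later means were 595 ± 32.7 at 56h, 494 ± 33.4 at 88h and 1269.6 ± 180.7 at 144h. In IL3-OHT the highest level came at 2h, with 880.5, 849 and 955 normalized counts, and at 168h the libraries had 412, 543 and 455. IL3-OHT was higher without overlap at 9 time points up to 32h, and GCSF-OHT at 14 from 56h on.

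*Tlr7* fell in IL3-OHT from 680.4 ± 27.9 normalized counts (SD, n = 3) to 154.3 ± 4.53 at 80h and came back to 312, 403 and 346 at 168h. In GCSF-OHT its lowest mean after OHT was 271 ± 12.0, also at 80h, and it had 643, 643 and 686 at 168h, which overlapped the undifferentiated libraries. From 56h on, every GCSF-OHT library was above every IL3-OHT library of its time point. *Tlr9*, the receptor for unmethylated CpG DNA, was near the floor of 3 reads, at 0 to 10 reads in undifferentiated libraries. Its highest mean was 23.8 ± 6.56 normalized counts in IL3-OHT 88h, when GCSF-OHT had 10.3 ± 3.00. IL3-OHT was the higher course without overlap at 14 of 27 time points and GCSF-OHT at 0.

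*Myd88* was higher in every GCSF-OHT library than in any IL3-OHT library of the same time point, at all 27. In IL3-OHT it had 1057, 1069 and 1033 normalized counts at 12h, its highest, and 462, 399 and 419 at 136h, its lowest. In GCSF-OHT it stayed between 1090.4 ± 39.8 (SD, n = 3) at 2h and 1960.1 ± 106 at 160h. The gene (chr9:119335934-119341411, minus strand) overlaps *Acaa1a* on the opposite strand and *Slc22a14* on its own strand, and strand use in the counting was not given in the sources used here. The neutrophil markers, as summed above, moved with *Tlr1* and *Myd88* between the courses; their part in these results was not tested.

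RefSeq promoters are shown for *Tlr13* and *Tlr1*, which had the highest log2 fold changes of the 9 genes in GCSF-OHT 168h, and for *Tlr2*, because each holds 1 match to a motif of a factor named here. The GRCm38.p6 table holds 250 bases before and 50 after a start. Promoters of 6 of the 9 symbols were searched. *Cd14*, *Tlr4* and *Tlr7* were not among them, so the matches say nothing about these genes. The search covered both strands for the PU box GAGGAA and a kappa B motif (GGG, 3 free bases and TTCC). These motifs do not overlap there. Capitals mark the match, and each sequence reads 5′ to 3′ on the gene's strand.
*Tlr13* chrX:106143025-106143324, plus strand: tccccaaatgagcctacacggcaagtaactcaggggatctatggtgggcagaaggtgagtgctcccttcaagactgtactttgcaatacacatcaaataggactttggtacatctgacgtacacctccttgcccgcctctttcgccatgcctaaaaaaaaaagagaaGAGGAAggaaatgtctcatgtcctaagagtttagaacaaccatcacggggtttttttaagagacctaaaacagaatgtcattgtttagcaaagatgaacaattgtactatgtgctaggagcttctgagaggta
*Tlr1* chr5:64933509-64933808, minus strand: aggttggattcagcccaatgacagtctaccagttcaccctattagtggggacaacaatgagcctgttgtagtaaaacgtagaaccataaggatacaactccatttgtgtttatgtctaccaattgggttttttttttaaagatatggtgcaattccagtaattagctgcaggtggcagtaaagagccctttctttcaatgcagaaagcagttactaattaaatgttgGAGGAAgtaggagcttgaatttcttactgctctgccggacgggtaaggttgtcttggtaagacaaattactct
*Tlr2* chr3:83841559-83841858, minus strand: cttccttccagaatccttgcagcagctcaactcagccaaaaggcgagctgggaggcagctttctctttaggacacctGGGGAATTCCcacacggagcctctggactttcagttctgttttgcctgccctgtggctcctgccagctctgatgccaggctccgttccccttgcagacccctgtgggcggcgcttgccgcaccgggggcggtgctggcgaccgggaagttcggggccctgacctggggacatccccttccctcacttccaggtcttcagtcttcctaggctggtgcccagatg
The PU box lies 83 bases before the start in *Tlr13* and 23 bases before it in *Tlr1*, and the kappa B match lies further upstream in *Tlr2*. *Tlr9* holds 2 PU boxes and 1 of the 2 *Tlr6* windows a kappa B match, while the *Myd88* window and the second *Tlr1* window hold neither. Of the 32851 RefSeq promoters searched, 28.3% hold the PU box and 5.56% the kappa B motif. A PU box is thus common and a kappa B match less so, and either match describes the sequence only.

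Early after OHT *Cd14* was called higher in both courses. In IL3-OHT 4h *Cd14* was called higher (1 of 9; 8.63% of all genes tested) and *Tlr6* and *Tlr7* lower (2 of 9; 13.5%). In GCSF-OHT 4h *Tlr4*, *Tlr13* and *Cd14* were called higher (3 of 9; 3.21%) and none lower (2.41%), with a log2 fold change of 3.01 (SE 0.06) for *Cd14*. In IL3-OHT 12h *Cd14* and *Myd88* were called higher (2 of 9; 11.2%) and *Tlr7* lower (1 of 9; 17.5%). In GCSF-OHT 12h *Tlr6* joined *Tlr4*, *Tlr13* and *Cd14* (4 of 9; 7.56%), again with none lower (3.88%). *Tlr9*, at -1.20 with limma, was called lower there by edgeR (-2.26, adjusted p = 0.0365) and DESeq2 (-2.41, adjusted p = 0.04) and without replicate 2 (-2.54), on at most 2 reads a library at 12h. Leaving out a library added other calls: in IL3-OHT 4h *Tlr1* without replicate 3 (-1.33) and *Tlr9* without replicate 2 (1.78), in IL3-OHT 12h *Tlr9* without replicate 1 (-2.39), and in GCSF-OHT 12h *Tlr2* without replicate 1 (0.63). With edgeR, *Tlr13* in IL3-OHT 4h and *Tlr2* in IL3-OHT 12h also passed the fold threshold, at 0.58 and 0.59. Whether the courses differ at these times was not tested.

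At 168h each course was set against its cells before OHT. In IL3-OHT 168h *Tlr1* and *Tlr9* were called higher (2 of 9; 10.2% of all genes tested) and *Tlr4* and *Tlr7* lower (2 of 9; 15.2%). *Tlr4* fell by 1.02 on the log2 scale (SE 0.08, adjusted p = 9.59e-22) and *Tlr7* by 0.95 (SE 0.10, adjusted p = 3.22e-14). The *Tlr9* call (log2 fold change 2.08, SE 0.61, adjusted p = 0.00224) was lost without replicate 1, where the value was 1.01 and adjusted p = 0.308, and in a fit of only the groups compared at adjusted p = 0.14. Its count ratio was 3.17 with a 95% exact interval of 1.76 to 6.04.

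In GCSF-OHT 168h 7 of 9 were called higher than in GCSF 0h (12.1% of all genes tested) and none lower (12.6%). The log2 fold changes were 4.51 (SE 0.12) for *Tlr13*, 2.84 (SE 0.42) for *Tlr1*, 2.10 (SE 0.06) for *Cd14*, 1.93 (SE 0.14) for *Tlr2*, 1.21 (SE 0.08) for *Tlr4* and 0.69 (SE 0.10) for *Tlr7*. *Tlr6* at 1.00 (SE 0.37, adjusted p = 0.0191) lost its call without replicate 1 at 0.96 (adjusted p = 0.09), without replicate 2 at 0.88 (adjusted p = 0.0833), and in a fit of only the groups compared (adjusted p = 0.0661). *Myd88* at 0.41 (SE 0.06) was under the fold threshold although its libraries did not overlap, and *Tlr9* at 0.83 (SE 0.61) was not called. The median of the 9 was 1.21, against 0 over all genes tested.

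The GCSF 0h libraries enter both this comparison and the one with undifferentiated cells, so a low value there raises the first and lowers the second. Against undifferentiated cells, which do not share that term, GCSF-OHT 168h had *Tlr1*, *Tlr2*, *Tlr13* and *Myd88* higher (4 of 9; 15.5% of all genes tested) and *Cd14* lower (1 of 9; 23.6%). The values were 5.41 (SE 0.42) for *Tlr1*, 2.31 (SE 0.12) for *Tlr13*, 1.38 (SE 0.06) for *Myd88* and 1.37 (SE 0.14) for *Tlr2*, all as log2 fold changes. *Cd14* fell by 1.25 (SE 0.06), *Tlr4* at -0.41 (SE 0.08) was under the fold threshold, and *Tlr7* at -0.05 (SE 0.10) overlapped.

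**Figure D3:**
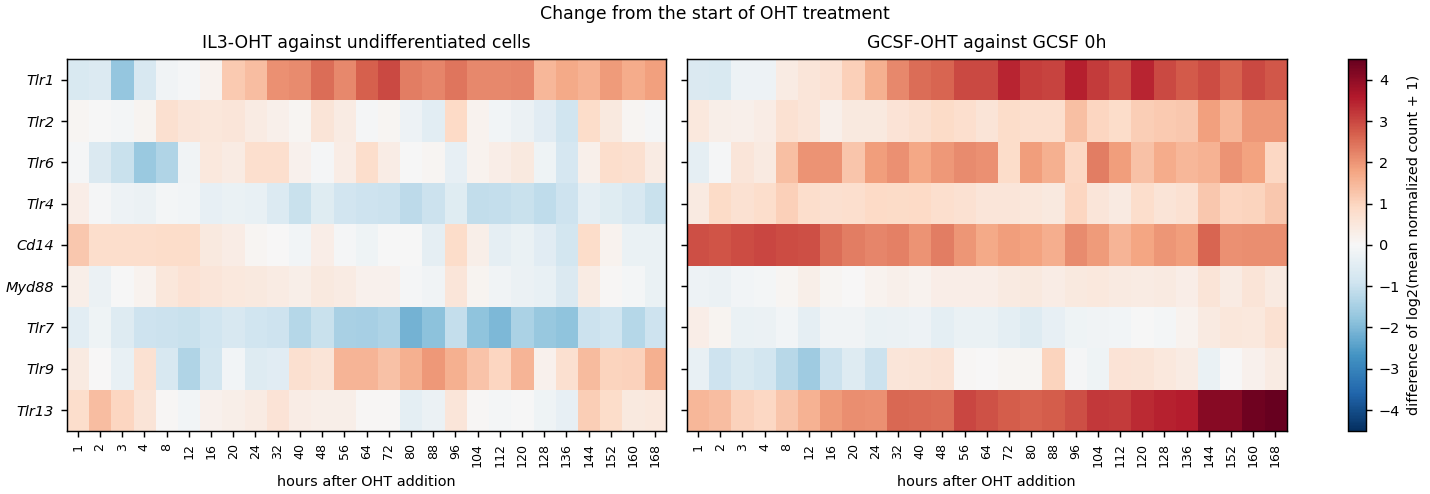
Difference of log2(mean normalized count + 1) from the cells before OHT (colour, red for higher and blue for lower) for each gene and time point in IL3-OHT and GCSF-OHT. *Tlr13* darkens along GCSF-OHT to 4.51 at 168h, *Cd14* is red from 1h on in GCSF-OHT with its highest value of 3.01 at 4h, and *Tlr7* is bluest in IL3-OHT 80h at -2.13.

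Within each course, the late part after 12h was compared with 12h. In IL3-OHT 168h *Tlr1* and *Tlr9* were higher than at 12h (2 of 9; 12.4% of all genes tested) and *Tlr2*, *Tlr4*, *Cd14* and *Myd88* lower (4 of 9; 10.9%), with -1.13 (SE 0.06) for *Cd14* and -0.95 (SE 0.06) for *Myd88*. In GCSF-OHT 168h *Tlr1*, *Tlr2*, *Tlr7*, *Tlr9* and *Tlr13* were higher than at 12h (5 of 9; 7.13%) and *Tlr6* and *Cd14* lower (2 of 9; 9.66%), with 2.95 (SE 0.12) for *Tlr13* and 1.10 (SE 0.10) for *Tlr7*. *Tlr9* in IL3-OHT had 55 reads against 5, a ratio of 11.6 with a 95% exact interval of 4.69 to 37.2. The *Tlr2* call in IL3-OHT (-0.59) was lost without replicate 3 at -0.53, with a pseudocount of 5 and under upper-quartile scaling (-0.58 and -0.57), while *Tlr13* there (0.56) was called without replicate 1 at 0.65. In GCSF-OHT the *Tlr6* call (-1.03) was lost without replicate 1 at -0.68 and without replicate 2 at -0.92, and that of *Tlr9* (2.03) without replicate 3 at 1.56. Over the whole courses all 9 genes changed at 1 time point or more in IL3-OHT, where 69.7% of all genes tested did, and all 9 in GCSF-OHT, where 47.7% did. In GCSF-OHT *Tlr9* (adjusted p = 0.103) and *Myd88* dropped out of that count without replicate 1, and *Myd88* also under upper-quartile scaling.

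Between the courses at 168h, 8 of the 9 genes were called. *Tlr1* (log2 fold change 3.32, SE 0.42), *Tlr13* (1.86, SE 0.12), *Myd88* (1.67, SE 0.06), *Tlr2* (1.41, SE 0.14), *Tlr7* (0.90, SE 0.10) and *Tlr4* (0.61, SE 0.08) were higher in GCSF-OHT (6 of 9; 12% of all genes tested). *Cd14* (-0.95, SE 0.06) and *Tlr9* (-1.37, SE 0.61) were lower (2 of 9; 16%). The *Tlr4* call was lost without replicate 3 at 0.50 and under upper-quartile scaling at 0.55. The *Tlr9* call (adjusted p = 0.0493) was lost without replicate 1 (adjusted p = 0.102) and without replicate 2, where it was -0.81 (adjusted p = 0.401). Averaged over the 25 time points that entered the fit for both courses, *Tlr1* (3.02, SE 0.08) and *Myd88* (1.08, SE 0.01) were higher in GCSF-OHT (2 of 9; 9.34%), and *Cd14* (-1.27, SE 0.01) and *Tlr9* (-0.89, SE 0.12) lower (2 of 9; 15.1%). The *Tlr9* call over these time points was lost with a pseudocount of 5, at -0.56. The orders of *Tlr2*, *Tlr4*, *Tlr7* and *Tlr13* turned along the courses, and their averages of 0.16, -0.24, 0.36 and 0.15 stayed under the fold threshold.

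The interaction term tests whether OHT changed a gene by a different amount in the 2 conditions at 168h. It was called higher in GCSF for 6 of 9 genes (14.5% of all genes tested) and lower for none (11.3%). The values were 4.05 (SE 0.16) for *Tlr13*, 2.40 (SE 0.08) for *Cd14*, 2.23 (SE 0.12) for *Tlr4*, 1.97 (SE 0.19) for *Tlr2*, 1.64 (SE 0.15) for *Tlr7* and 0.70 (SE 0.08) for *Myd88*. *Cd14*, *Tlr13* and *Tlr4* were also the genes for which GCSF 0h stood furthest under undifferentiated cells, and those starting levels are part of the term. *Tlr1* at 0.75 (SE 0.59, adjusted p = 0.321) was not called, but it was called without replicate 3 at 1.81 (adjusted p = 0.0236) and, with all libraries, with a pseudocount of 5 at 1.43 (adjusted p = 0.000528).

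At 40, 88 and 136 h, 8 h before a sampled time point, fresh OHT was added and part of the medium was replaced. Fresh OHT and fresh medium cannot be told apart in these values. The time points at 48h, 96h and 144h were set against the mean of their neighbours. In IL3-OHT 96h *Tlr2*, *Tlr7*, *Tlr13* and *Cd14* were higher than their neighbours (4 of 9; 9.34% of all genes tested were higher and 8.18% lower, and none of the 9 was lower). In IL3-OHT 144h *Tlr2*, *Tlr13*, *Cd14* and *Myd88* were higher (4 of 9; 8.58%, with 6.77% lower). The *Tlr13* libraries at 144h (630 to 836) overlapped their neighbours, whose means were 266 at 136h and 607 at 152h. *Cd14* (4393 and 8876), *Tlr2* (74.2 and 184.8) and *Myd88* (427 and 694) were also lower at 136h than at 152h, so the neighbours' mean spans a step. *Myd88* at 96h (0.57) passed the fold threshold without replicate 1 or 3, at 0.59 and 0.62. *Cd14* had 12998, 13362 and 15328 normalized counts at 144h, against 4139 to 9033 in the 6 neighbouring libraries, and log2 differences of 0.89 (SE 0.05) at 96h and 1.15 (SE 0.05) at 144h. *Tlr2* had 249, 254 and 235 at 144h against 64.8 to 199.9, and both genes lay wholly above their neighbours at either time point. The *Spi1* transcript was 1.75 times its neighbours at 96h and 1.53 times at 144h in IL3-OHT; its part in these values was not tested.

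In IL3-OHT 48h and GCSF-OHT 48h none of the 9 was called by limma, edgeR or DESeq2 (0 of 9 each), where 0.758% and 0.161% of all genes tested were called higher and 0.844% and 0.19% lower. At an unadjusted p under 0.05 by limma, without a fold threshold, 5 of 9 passed in IL3-OHT and 3 of 9 in GCSF-OHT. The share of all genes tested that passed this looser cut was not counted, so these counts cannot be set against the shares above. In GCSF-OHT 144h *Cd14* was higher (1 of 9; 0.775%, with 1.07% lower), with 4440.1 to 4924 normalized counts against 2659 to 3260.3. In GCSF-OHT 96h *Tlr6* was lower (1 of 9; 3.54%, with 1.12% higher), a call on 2 libraries that overlapped their neighbours. The *Tlr6* value of -1.08 lost its call without replicate 2 at -0.59 and without replicate 3 (adjusted p = 0.0792). *Cd14* was above its neighbours without overlap at all 6 of these time points, with ratios of 1.29, 1.81 and 2.09 in IL3-OHT and 1.25, 1.27 and 1.58 in GCSF-OHT.

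**Figure D4:**
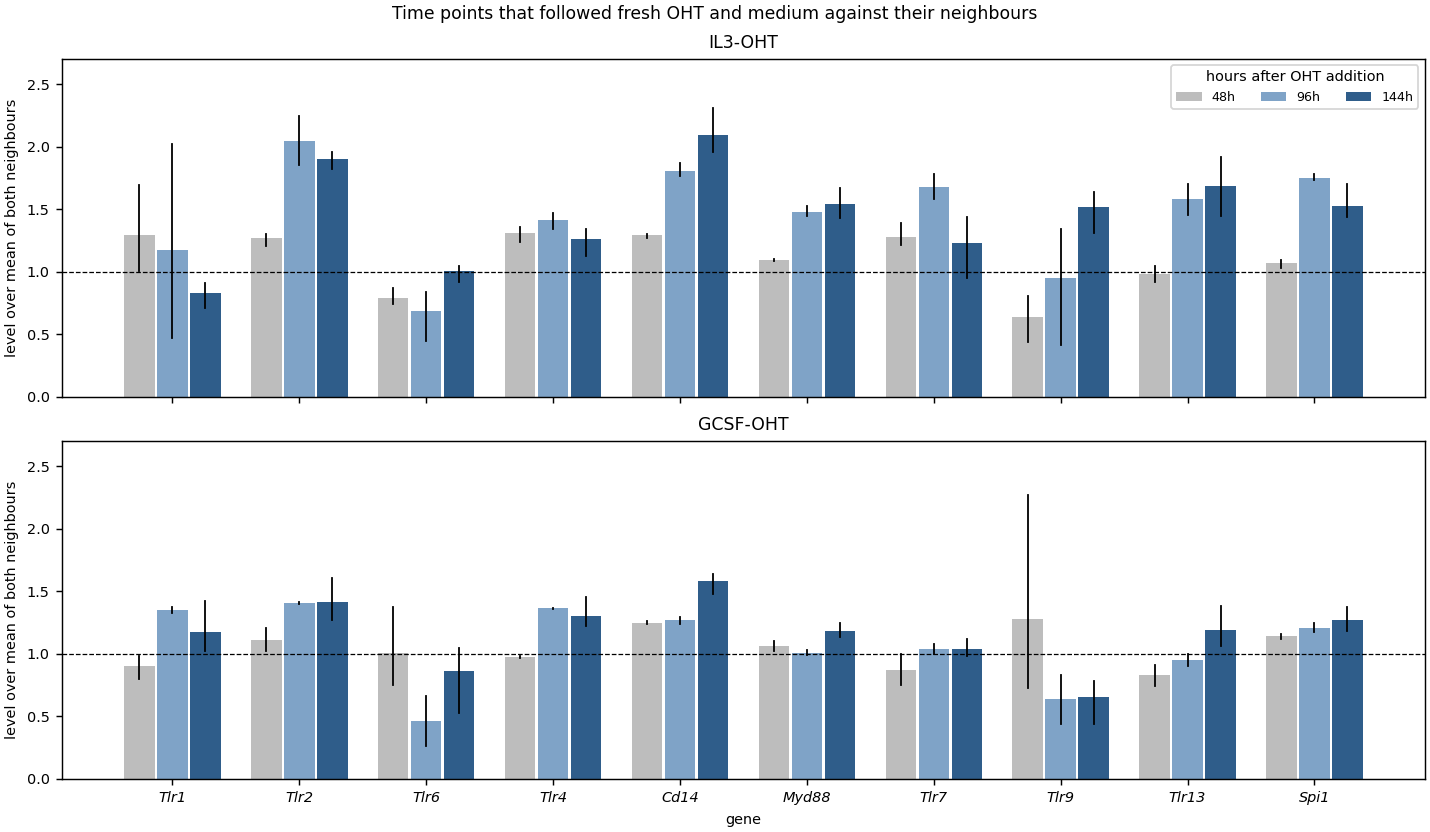
Ratio of each gene's mean to the mean of its neighbouring time points at 48h, 96h and 144h, 8 h after fresh OHT and medium, in IL3-OHT and GCSF-OHT, with *Spi1* beside the 9 genes. Bars stand for the ratio, lines for the lowest and highest library (n = 3, or 2 for GCSF-OHT 96h), and the dashed line for a ratio of 1. *Cd14* is above 1 at all 6, from 1.25 to 2.09, and *Tlr2* reaches 2.04 and 1.90 in IL3-OHT 96h and 144h.

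Of 46 other genes of the pathway, listed by role, 39 were tested. At GCSF 0h against undifferentiated cells 6 were higher and 11 lower (13% and 20.7% of all genes tested). In IL3-OHT 168h 9 were higher and 8 lower (10.2% and 15.2%), and in GCSF-OHT 168h against GCSF 0h 13 were higher and 2 lower (12.1% and 12.6%). The interaction term was called higher for 15 and lower for 3 (14.5% and 11.3%). In GCSF-OHT 168h their median log2 fold change was 0.35, against 1.21 for the 9 genes above and 0 over all genes tested.

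Of the other receptors only *Tlr3* and *Tlr8* were tested, and *Tlr5*, *Tlr11* and *Tlr12* were too low. *Tlr8*, an endosomal relative of *Tlr7*, had 1.31, 0 and 2.36 normalized counts in undifferentiated cells and 77.2, 114.4 and 82.9 in IL3-OHT 168h. In GCSF it went from 0, 1.77 and 3.73 to 166, 168 and 237. The ratios were 80.1 (95% exact interval 27.1 to 391) in IL3-OHT and 107 (48.7 to 292) in GCSF-OHT, so *Tlr8* rose in both courses while *Tlr7* fell in IL3-OHT. The interaction was not called for *Tlr8* (0.80, SE 0.45, adjusted p = 0.147).

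Partners of the lipopolysaccharide receptor differed from *Cd14*. *Lbp*, the serum protein that loads CD14, rose from 468, 475 and 461 normalized counts in undifferentiated cells to 1879, 1872 and 1965 in GCSF 0h, fell to 217, 199 and 193 in IL3-OHT 168h and stood at 2212, 2047 and 2121 in GCSF-OHT 168h. Its log2 fold change between the courses was 3.38 (SE 0.08, adjusted p = 2.44e-66), opposite in sign to that of *Cd14*. *Ly96*, which encodes the MD-2 subunit that TLR4 needs, was low at 17.4 to 22.5 in undifferentiated cells and 31.5 to 37.8 in GCSF-OHT 168h. *Unc93b1*, the chaperone that carries nucleic acid receptors to endosomes, was over the floor in only 15 libraries of the series. *Slc15a4*, an endosomal transporter used in TLR7 and TLR9 signalling, rose in both courses (0.94 and 0.88, SE 0.08 each).

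Among 5 further adaptors, *Tirap*, the bridge from TLR2 and TLR4 to MyD88, rose in GCSF-OHT 168h by 0.64 (SE 0.06) on the log2 scale. In IL3-OHT *Tirap* was called higher at 4h (0.71) and 12h (0.65) but not at 168h (0.01). *Sarm1* fell by 1.83 (SE 0.16) in GCSF-OHT 168h and was also lower in IL3-OHT 168h (-0.71, SE 0.16). *Ticam1* and *Ticam2* were not called at 168h in either course. *Pik3ap1* was lower in GCSF-OHT than in IL3-OHT at 168h (-1.34, SE 0.05). All 7 tested output genes, which encode cytokines, chemokines and other products that Toll-like receptor signalling induces, were lower in GCSF 0h than in undifferentiated cells (20.7% of all genes tested were), with a median log2 fold change of -2.47. At 168h in IL3-OHT 2 of the 7 were higher (*Tnf* and *Cxcl2*) and 4 lower (10.2% and 15.2% of all genes tested), and in GCSF-OHT 5 were higher than in GCSF 0h (12.1%). Of the 12 kinases and other signalling genes tested, 2 were higher and 1 lower in IL3-OHT 168h, and 2 were higher in GCSF-OHT 168h, numbers near the shares of all genes tested (10.2% and 15.2%, and 12.1%). The 4 most abundant of them were *Irak1*, *Irak2*, *Ikbkg* and *Tab2*. *Irak2* rose from 3218 ± 87.5 normalized counts in undifferentiated cells to 5937 ± 79.9 in IL3-OHT 168h (SD, n = 3), *Ikbkg* fell from 2845 ± 36.6 to 1819 ± 41.7, and *Irak1* and *Tab2* were not called there. In GCSF-OHT 168h *Tab2* rose from 1365 ± 42.9 in GCSF 0h to 2090.0 ± 82.3, and the other 3 were not called.

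Of 6 feedback genes, *Nfkbia*, *Tollip*, *Irak3* and *Cyld* were the most abundant. *Cyld*, a deubiquitinase that limits NF-kappa B, rose in both courses, to 925 ± 55.2 in IL3-OHT 168h and 1378 ± 38.6 in GCSF-OHT 168h. *Tollip* and *Irak3* were not called at 168h in either course, although *Tollip* was called lower in IL3-OHT 12h (-0.63, SE 0.04). Over the whole IL3 course all 6 feedback genes changed at 1 time point or more. *Nfkbia*, a target and inhibitor of NF-kappa B, had 6295 ± 162 normalized counts in undifferentiated cells, 1754 ± 42.1 in GCSF 0h, 2939 ± 26.7 in IL3-OHT 168h and 2919 ± 80.9 in GCSF-OHT 168h (SD, n = 3).

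**Figure D5:**
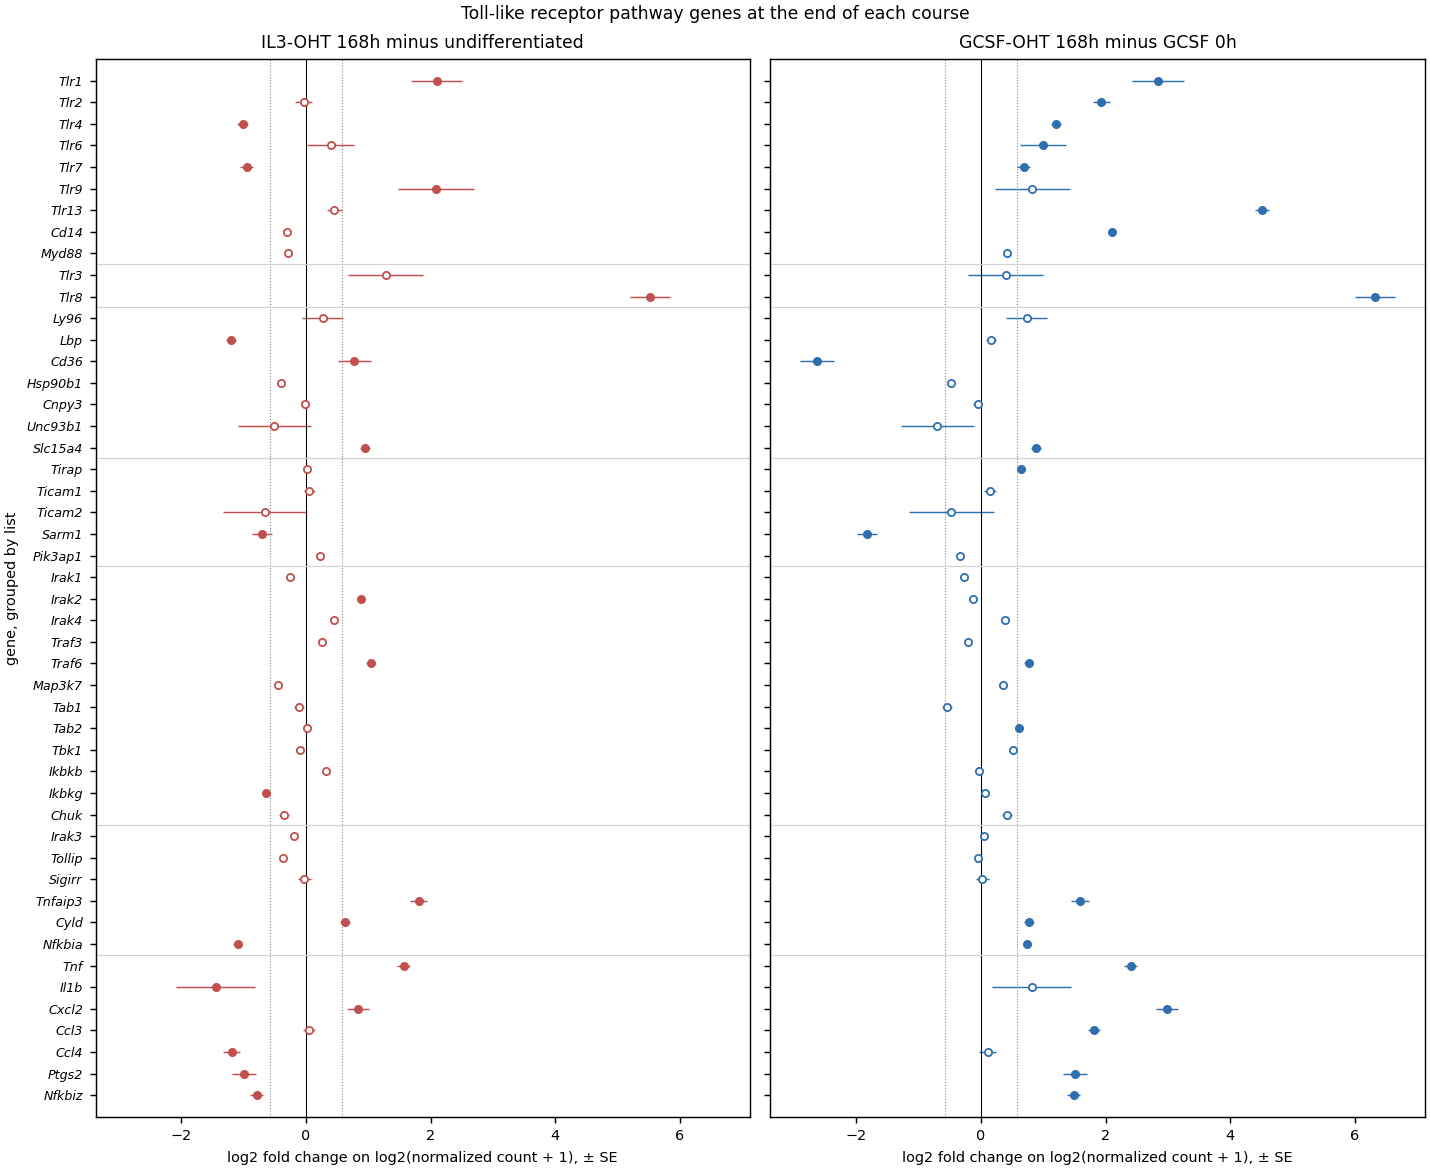
Log2 fold change with its SE for the 9 genes and the 39 other tested genes of the pathway, grouped by role, in IL3-OHT 168h and GCSF-OHT 168h against the cells before OHT. Filled points are called and dotted lines mark the fold threshold of 0.58. *Tlr8* has the highest value in either panel, 5.52 and 6.32, and *Cd36* the lowest in GCSF-OHT at -2.63.

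The genes whose mean profile over 54 groups was most like that of each receptor were named by Pearson's r among 12298 genes that averaged 10 normalized counts or more, as a description over groups that share time, plates and libraries. *Tlr1* was closest to *S100a8* (0.98), *Ets1* (0.95) and *S100a9* (0.95), *Myd88* to *Entpd5* (0.96), and *Cd14* to *S100a10* (0.93). *Tlr13* was closest to *Clec4e* (0.92), *Tlr7* to *Slc35e2* (0.88), *Tlr4* to *Ifi207* (0.87) and *Tlr2* to *Gbp2* (0.86). The low genes *Tlr6* and *Tlr9* were closest to *Lrrc8e* (0.88) and *Lamb3* (0.83). Between members, the closest pairs in the GCSF course (28 time points) were *Tlr2* with *Tlr13* (0.90) and *Tlr1* with *Myd88* (0.90). In the IL3 course (26 time points) they were *Tlr2* with *Myd88* (0.89) and *Tlr4* with *Tlr7* (0.86), whereas *Tlr1* and *Tlr4* ran against each other (-0.82).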

How the data were processed

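RNA-seq was measured in 165 libraries of PUER cells. Per the labels and methods, the authors aligned reads selectively with Salmon to GRCm38 and scaled counts by DESeq2's median-of-ratios size factors. How transcripts were summed to genes, and strand use, were not given in the sources used here. The deposited values are therefore a signal, counts over a size factor: 100% of the nonzero values came out as whole reads (tolerance 1e-06), at 14600246 to 33147945 reads a library. No spike-in entries were in the table (0).

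The 9 genes, the pathway and marker lists and the tests were chosen with earlier results of these data known. The main test was limma 3.58.1 (R 4.3.3) on log2(value + 1) with 1 mean per group and a mean-variance trend over 54 groups, 159 libraries and 17414 genes with a value of at least 5 in 1 library. That fit omitted the 96h and 144h libraries of IL3-OHT, as the study did. They were tested in a second fit of all 56 groups, together with 4 comparisons at other time points after fresh OHT that were added after the data were seen. P-values were Benjamini-Hochberg adjusted within a comparison, over all genes tested. A gene was called at an adjusted p under 0.05 and a log2 fold change past 0.58, which understates the change of low genes. All 9 genes were named. Other receptors, co-receptors and adaptors were named, or were only counted among all other pathway genes. The 4 most abundant genes of the signalling list and of the feedback list were named. Output genes were named after their values were seen. Likeness took the 3 genes of highest Pearson's r.

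The limma and edgeR steps were tested on simulated data. Alternatives were pseudocounts of 0.5 and 5, no filter (28063 genes), a mean of at least 10 (12298 genes), upper-quartile scaling, leaving out each replicate number, a replicate block, separate fits per comparison, the 96h and 144h IL3-OHT libraries included, and edgeR 4.0.16 and DESeq2 1.42.0 on the whole reads. Replicate pairs differed by more than sampling noise (chi-square per gene 2.25 to 68.5 over 162 pairs). Count ratios have 95% exact conditional intervals, which like the floor of 3 reads cover counting error only. Levels per kb used exon lengths, and places GENCODE annotation, of GRCm38. Python 3.11.15, numpy 2.4.6, pandas 2.3.3, scipy 1.17.1 and matplotlib 3.10.9 were used for the rest. 1 marker gene is not reported here.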

Additional observations from a re-analysis of the deposited data

Results flagged for a closer look

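The effect of OHT at 168h differed between the GCSF and IL3 conditions for 6 of the 9 genes, by limma's interaction term. *Tlr13* had a difference of 4.05 on the log2 scale (SE 0.16, adjusted p = 5.12e-45), *Cd14* of 2.40 (SE 0.08, adjusted p = 1.42e-52) and *Tlr4* of 2.23 (SE 0.12, adjusted p = 1.69e-35). *Tlr2* had 1.97 (SE 0.19, adjusted p = 1.98e-16), *Tlr7* 1.64 (SE 0.15, adjusted p = 2.10e-18) and *Myd88* 0.70 (SE 0.08, adjusted p = 9.87e-13). The term holds the starting level of each condition, and for *Cd14*, *Tlr2*, *Tlr4*, *Tlr7* and *Tlr13* the GCSF 0h libraries started lower than the undifferentiated ones. Cytokine, pre-treatment and OHT dose cannot be told apart in it.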

How the results depend on the processing

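Of 2264 single-gene values under an alternative, 2222 stayed on their side of the threshold, 25 lost and 17 gained a call and 0 changed direction while called. *Tlr1*, *Tlr6* and *Tlr9*, the 3 genes of few reads, gave 27 of these 42 changes, and *Tlr7* and *Cd14* gave 0. Counts of called genes kept within 1.5 times in every comparison but GCSF-OHT 96h against its neighbours: its 1 call became 0 in a fit of only the groups compared, and ranged from 0 to 1 when replicates were left out. For pathway genes 244 of 254 counts kept within that range. With the replicate block all 21 counts were as without it, for example 8 between the courses at 168h. The labels do not tie replicate numbers together, and deviations of 33 same-numbered pairs correlated at -0.04 to 0.05.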
